A study of Mus musculus with 6 samples.

Results

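The genes described here are 4 keratins of simple epithelia (Krt7, Krt8, Krt18 and Krt19) and 4 genes of the desmosome (Dsp, Jup, Dsg2 and Dsc2), in mouse embryonic stem cells (mESCs) cultured with or without a cytokine of the LIF family. They were taken by symbol from a table of 28584 genes, so they are 8 of 28584, and all 8 passed the filter on low values that left 18556 genes for testing, Krt7 only through its level in -LIF-ESCs. The set was put together because Krt8 and Krt19 stand far higher without cytokine, so the values of -LIF-ESCs against the other groups chose it. These comparisons are given for the 8 genes as a description with no test, and the comparison of OSM-ESCs with LIF-ESCs, which the choice did not use, was tested.

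Keratins are the intermediate filament proteins of epithelial cells, and each filament is built from pairs of a type II and a type I chain. Krt8 and Krt7 are type II chains and Krt18 and Krt19 are type I chains, and Krt8 with Krt18 is the pair that the first epithelia of the embryo, trophectoderm and then endoderm, are known for. Desmosomes are the junctions to which these filaments attach. In a desmosome the cadherins desmoglein (Dsg2) and desmocollin (Dsc2) cross the membrane, plakoglobin (Jup) binds their tails, and desmoplakin (Dsp) joins the plaque to the filaments.

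Poly-A RNA of 6 libraries was sequenced at passage 10 in the new media, 2 biological replicates in each of 3 groups. All 3 groups came from 1 mESC line of a C57BL/6 and 129S6 cross, with no genetic change named, that had first been grown in serum and LIF on MEF feeder cells inactivated with mitomycin C. LIF-ESCs were then kept in basic medium (with serum) and 1000 U/mL LIF, OSM-ESCs in the same medium with 10 ng/mL oncostatin M (OSM, a cytokine that shares a receptor chain with LIF), and -LIF-ESCs in the same medium with neither. A single line limits all groups as a model, and whether feeder cells remained when the RNA was taken is not given in the sources used here. The label of the extraction step names ovaries. Foxl2, a defining ovarian transcription factor, was at 0.365 TPM or less in every library, while Pou5f1, a defining mESC gene, was at 540 to 1190 TPM.

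The deposited values are TPM. In this unit the reads of a gene are divided by its length, and every library is scaled to 1 total. Levels of different genes can be set side by side as far as the length used is that of the transcripts made. The values fitted the joint length of all annotated exons, 7049 bases for Krt7 and 1437 to 1958 for Krt8, Krt18 and Krt19. The reads recovered from the TPM values came to between 20712941 and 28994417 per library. Within each group the replicates were separate libraries, whose reads gave a mean chi-square of 2.03 to 3.49 per gene where sampling noise alone gives 1. Differences were taken on the log2(TPM + 1) scale, where the fold of a gene with a low TPM comes out too small. On this scale the median of all genes tested was -0.165 in -LIF-ESCs against LIF-ESCs and -0.182 against OSM-ESCs, so a gene at 0 stood slightly above the bulk of genes, and after rescaling by the median ratio of the libraries these medians were -0.017 and -0.02. The libraries are bulk RNA, in which a smaller share of cells that express a gene and less of its RNA per cell cannot be told apart.

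The 8 genes lie on 4 chromosomes of GRCm38, in the positions of GENCODE M21. Krt7 (15, 101411043 to 101430313, plus strand), Krt8 (15, 101996698 to 102004482, minus strand) and Krt18 (15, 102028180 to 102032027, plus strand) share chromosome 15 with the type II keratin genes, and Krt18 is the type I gene that sits outside the type I cluster. Krt8 and Krt18 are 23.7 kb apart and their 5′ ends face each other. Krt19 (11, 100140810 to 100148665, minus strand) lies in the type I cluster of chromosome 11, and Jup (11, 100368958 to 100397763, minus strand) is 220.3 kb beyond it. Dsc2 and Dsg2 belong to the desmosomal cadherin cluster, on another chromosome. Dsp (13, 38151294 to 38198577, plus strand) has no other member on its chromosome.

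Promoter sequences were matched by symbol for 5 of the 8 genes, from RefSeq on GRCm38.p6, each running from 250 bases before the start to 50 bases after it. Except for Dsp, these starts are not the ends of the genes in the GENCODE positions above. The Krt7 window lies wholly inside the Krt7 gene as given there. Those of the 3 keratins of chromosome 15 are shown because neighbouring genes reached very different levels in -LIF-ESCs, and that of Dsp because it was the plaque gene with the widest gap between groups. Capitals mark the letters of the 5 motifs searched on both strands. TATAAA is a core promoter box, GGGCGG is the box that Sp factors bind (called a GC box here), TGANTCA is an AP-1 site, CAGGTG is an E-box that Snail and Zeb factors bind, and AACCGGTT is a Grainyhead site. The windows are chr15:101412153-101412452 on the plus strand for Krt7, chr15:102004293-102004592 on the minus strand for Krt8, chr15:102027966-102028265 on the plus strand for Krt18 and chr13:38151044-38151343 on the plus strand for Dsp.
Krt7: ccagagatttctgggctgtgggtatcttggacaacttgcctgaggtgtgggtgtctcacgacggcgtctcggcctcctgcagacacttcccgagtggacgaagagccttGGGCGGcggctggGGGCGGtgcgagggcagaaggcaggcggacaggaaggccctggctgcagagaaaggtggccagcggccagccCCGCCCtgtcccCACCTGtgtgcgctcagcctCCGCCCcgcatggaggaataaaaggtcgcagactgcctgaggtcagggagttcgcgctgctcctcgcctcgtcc
Krt8: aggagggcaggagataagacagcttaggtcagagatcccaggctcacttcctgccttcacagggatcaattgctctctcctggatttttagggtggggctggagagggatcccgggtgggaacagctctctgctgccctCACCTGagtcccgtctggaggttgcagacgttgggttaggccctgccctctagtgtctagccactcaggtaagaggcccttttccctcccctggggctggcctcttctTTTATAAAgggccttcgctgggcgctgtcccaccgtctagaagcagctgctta
Krt18: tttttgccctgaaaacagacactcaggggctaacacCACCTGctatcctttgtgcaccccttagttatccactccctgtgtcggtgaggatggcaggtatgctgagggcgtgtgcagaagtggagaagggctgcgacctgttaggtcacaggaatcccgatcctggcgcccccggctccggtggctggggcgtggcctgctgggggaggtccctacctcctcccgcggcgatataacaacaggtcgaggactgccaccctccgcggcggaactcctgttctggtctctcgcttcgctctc
Dsp: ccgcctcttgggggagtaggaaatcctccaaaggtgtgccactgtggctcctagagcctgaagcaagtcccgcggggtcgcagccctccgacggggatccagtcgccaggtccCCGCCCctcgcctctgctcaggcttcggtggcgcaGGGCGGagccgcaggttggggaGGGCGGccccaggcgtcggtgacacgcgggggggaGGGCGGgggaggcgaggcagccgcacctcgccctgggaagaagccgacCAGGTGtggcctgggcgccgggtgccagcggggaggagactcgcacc

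The Krt8 window held TATAAA, read on both strands as 2 overlapping matches, and 1 E-box. These TATAAA matches begin 3 and 1 bases before the annotated start and run across it. The Krt18 window held 1 E-box alone. The Krt7 window held 4 GC boxes and 1 E-box, and the Dsp window 4 GC boxes and 1 E-box that lies just after the start. In the Jup window (chr11:100397741-100398040, minus strand) 2 GC boxes were found. Of all 32851 promoters of this length 13.6% held TATAAA, 35.7% the GC box, 7.8% the AP-1 site, 20.2% the E-box and 0.1% the Grainyhead site. The AP-1 and Grainyhead letters were in none of the 5 windows. A match is a description of the letters, and no factor binding was measured.

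The type II keratin Krt8 was among the most abundant transcripts of -LIF-ESCs. It was at 993.6 and 969.9 TPM in the -LIF-ESC libraries, at 12.63 and 12.85 TPM with LIF and at 20.78 and 15.83 TPM with OSM. By mean TPM it was number 135 of 28584 genes without cytokine, number 8754 in LIF-ESCs and number 7272 in OSM-ESCs. Krt8 was therefore present in every library, on 227 to 411 reads with cytokine and on 17671 or more without, and the libraries without cytokine stood clear of the other 4. The mean of 982 ± 16.8 TPM (SD, n = 2) in -LIF-ESCs was 77.1 times that of LIF-ESCs (12.7 ± 0.157) and 53.6 times that of OSM-ESCs (18.3 ± 3.5).

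Krt18, the type I partner of Krt8, followed the same order. Its level was 755.2 and 775.8 TPM without cytokine, 19.88 and 18.13 TPM with LIF and 23.83 and 23.47 TPM with OSM. The mean of -LIF-ESCs (766 ± 14.6 TPM) was 40.3 times that of LIF-ESCs (19.0 ± 1.24) and 32.4 times that of OSM-ESCs (23.7 ± 0.260). With cytokine Krt18 was the highest of the 4 keratins, and without it Krt8 was.

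Krt19, a type I keratin of many simple epithelia and the smallest of the family, had the widest gap between groups of the 8 genes. It was at 573.1 and 555.6 TPM in -LIF-ESCs, where it was number 230 of 28584 by mean TPM. In LIF-ESCs it was at 2.069 and 1.554 TPM, on 36 and 26 reads, and in OSM-ESCs at 2.935 and 3.6 TPM, on 55 and 81 reads. By mean TPM Krt19 was number 15470 in LIF-ESCs and number 13821 in OSM-ESCs, of 28584 genes. The ratio of the means was 312 against LIF-ESCs and 173 against OSM-ESCs. The low reads of the cytokine groups limit the precision of these ratios.

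Krt7, a type II keratin of ducts and of trophoblast, was the low member of the family. Its level was 10.26 and 9.284 TPM without cytokine, 0.3176 and 0.4246 TPM with LIF and 0.4494 and 0.5731 TPM with OSM. Krt7 and Krt8 lie in the same cluster, and in -LIF-ESCs the mean of Krt7 (9.77 ± 0.691 TPM) was far below that of Krt8. Against LIF-ESCs the ratio of the means was 26.3 and against OSM-ESCs 19.1, from 21 to 49 reads per library with cytokine.

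**Figure D1:**
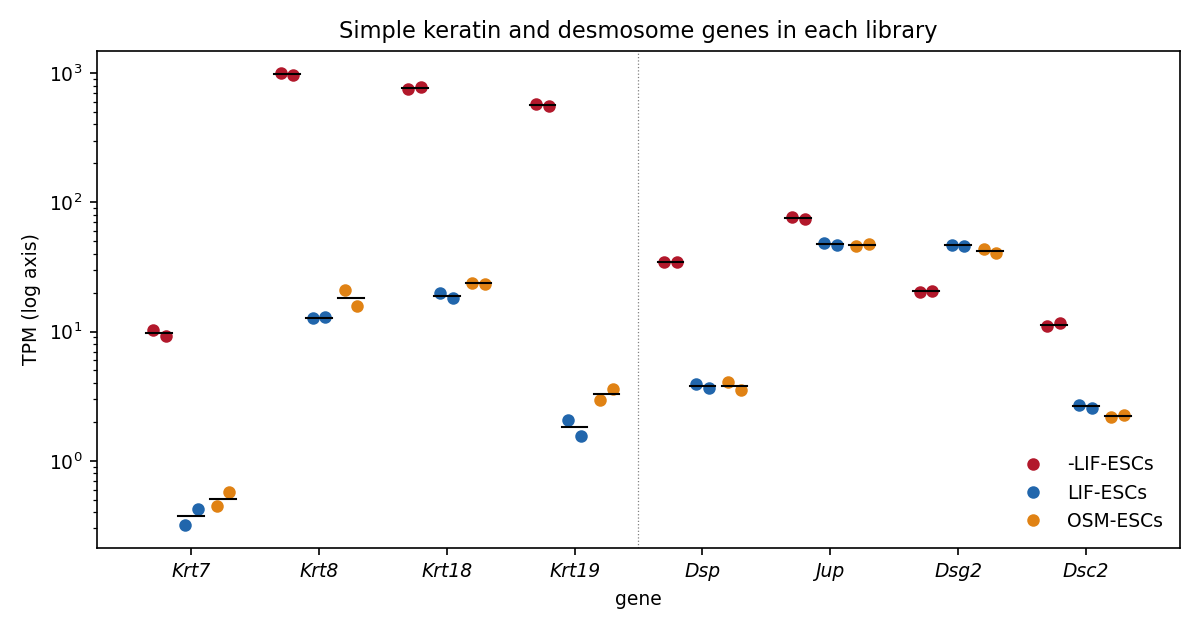
Each point is 1 library, placed by TPM on a log axis, and each line is the mean of the 2 libraries of a group. The -LIF-ESC libraries stand above the other 4 for 7 of the genes and below them for Dsg2, and the gap is widest for Krt19.

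The balance of these 4 keratin chains differed between the groups as well as their sum. Together the 4 keratins were at 2332 and 2311 TPM in -LIF-ESCs (0.233% and 0.231% of all TPM), at 34.9 and 32.96 TPM with LIF and at 47.99 and 43.47 TPM with OSM. Of the summed TPM of Krt18 and Krt19, Krt19 made up 42.4% ± 1.00 without cytokine, 8.66% ± 1.08 with LIF and 12.1% ± 1.66 with OSM (SD, n = 2 each). In every library these type I chains summed to more than Krt7 and Krt8, the type II chains of the set. Other keratins are not in these sums, among them Krt42 at 14.14 and 15.4 TPM with LIF. Within the 4 genes the ratio of type II to type I TPM was 0.7558 and 0.7354 without cytokine, 0.5899 and 0.6745 with LIF and 0.793 and 0.6061 with OSM. This ratio overlapped between -LIF-ESCs and OSM-ESCs, and Krt8 was higher in OSM replicate 1 than in replicate 2. The ratio of Krt8 to Krt18 did not overlap between -LIF-ESCs and the others, at 1.316 and 1.25 without cytokine and at 0.6353 to 0.8718 with it.

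Desmoplakin (Dsp), which ties keratin filaments to the plaque, was the desmosome gene with the widest gap. Its level was 34.29 and 34.5 TPM without cytokine, 3.94 and 3.638 TPM with LIF and 4.068 and 3.517 TPM with OSM. The mean of -LIF-ESCs (34.4 ± 0.149 TPM) was 9.08 times that of LIF-ESCs and 9.07 times that of OSM-ESCs. The cytokine groups overlapped each other.

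Plakoglobin (Jup), which also binds E-cadherin in adherens junctions, was abundant in all groups. It was at 77.02 and 73.72 TPM without cytokine, at 48.54 and 46.82 TPM with LIF and at 46.14 and 47.96 TPM with OSM. The means differed by a ratio of 1.58 against LIF-ESCs and 1.60 against OSM-ESCs, the narrowest gap of the 8 genes. Its log2 difference of 0.65 and 0.67 became 0.82 and 0.85 after rescaling by the median ratio.

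The desmosomal cadherins stood on opposite sides. Their genes, Dsc2 (20030633 to 20059554, minus strand) and Dsg2 (20558074 to 20604521, plus strand), lie 498.5 kb apart on chromosome 18 of GRCm38. Dsg2, the desmoglein of simple epithelia and of heart, was at 20.39 and 20.76 TPM without cytokine, at 47.13 and 46.22 TPM with LIF and at 43.77 and 40.35 TPM with OSM. It was the only one of the 8 genes that was lower in -LIF-ESCs, and its mean was 2.27 times as high in LIF-ESCs and 2.04 times as high in OSM-ESCs. Its log2 difference of -1.14 and -1.0 was -0.98 and -0.82 after rescaling, so it stayed lower. Dsc2, the desmocollin of the same tissues, was at 10.95 and 11.67 TPM without cytokine, at 2.707 and 2.563 TPM with LIF and at 2.176 and 2.265 TPM with OSM. The mean of Dsc2 in -LIF-ESCs (11.3 ± 0.511 TPM) was 4.29 times that of LIF-ESCs and 5.09 times that of OSM-ESCs.

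The makeup of the desmosome set differed between the groups as well. The 4 genes summed to 142.6 and 140.6 TPM without cytokine, to 102.3 and 99.23 TPM with LIF and to 96.15 and 94.09 TPM with OSM. Jup held about the same share in all groups, from 47.2% to 54.0%. The ratio of Dsg2 to Dsc2 was 1.82 ± 0.0594 without cytokine, 17.7 ± 0.438 with LIF and 19.0 ± 1.63 with OSM, and that of Jup to Dsp was 2.19 ± 0.0771, 12.6 ± 0.389 and 12.5 ± 1.63 (SD, n = 2 each). Dsg2 held 45.5% to 46.6% of the sum in 3 of the 4 cytokine libraries and 42.9% in OSM replicate 2, and 14.3% and 14.8% without cytokine.

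**Figure D2:**
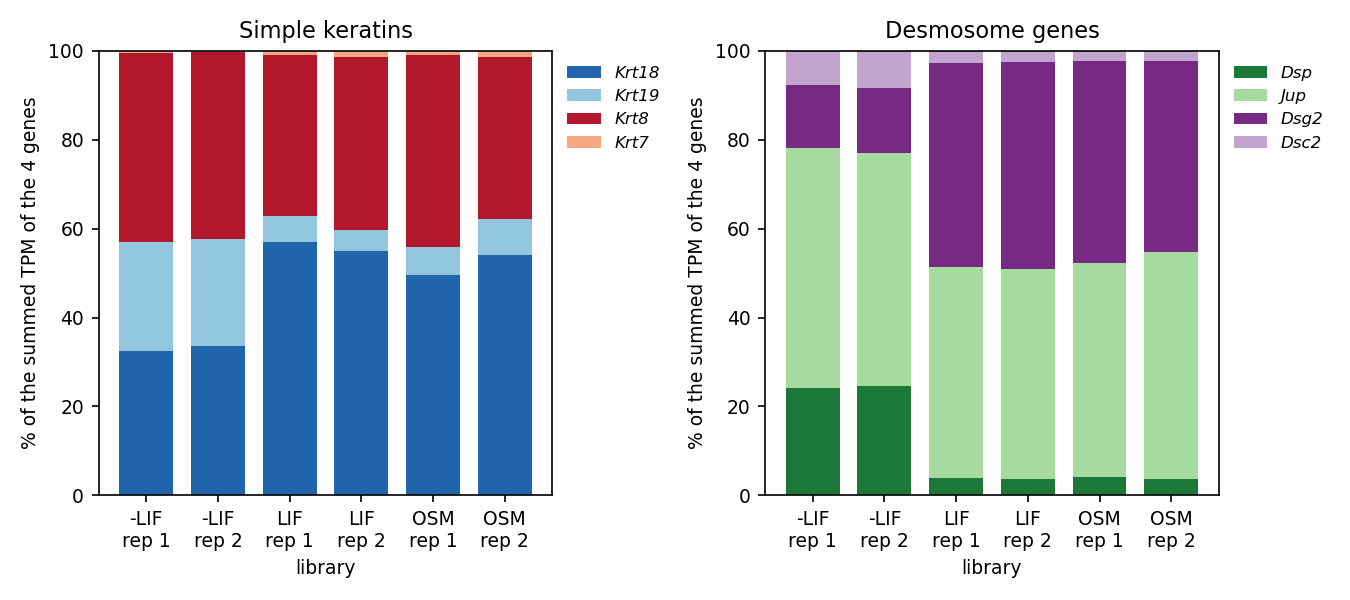
Each stacked bar is 1 library, and the height of a colour is the share of a gene, in %, of the summed TPM of the 4 keratins (left) or of the 4 desmosome genes (right). Krt19 takes a larger share of the keratins in -LIF-ESCs, and among the desmosome genes the share of Dsg2 is smaller and those of Dsp and Dsc2 larger there.

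Ordered by mean TPM, the genes of -LIF-ESCs ran from Krt8 through Krt18, Krt19, Jup, Dsp, Dsg2 and Dsc2 to Krt7. No neighbours in this order overlapped between their libraries. The last place of Krt7 there rests on the exon lengths used, since its reads (819 and 609) were above those of Dsc2 (654 and 573). In LIF-ESCs the order was Jup, Dsg2, Krt18, Krt8, Dsp, Dsc2, Krt19 and Krt7, and only Jup and Dsg2 overlapped. In OSM-ESCs Krt19 stood above Dsc2, and Krt19 overlapped with Dsp above it. In all, 7 of the 8 genes were higher in both -LIF-ESC libraries than in both LIF-ESC libraries and 1 was lower, and the counts against OSM-ESCs were the same. Over all genes tested 33.4% were higher and 50.9% lower without overlap against LIF-ESCs, and 32.4% and 51.5% against OSM-ESCs. Nothing is read from these counts, because the set was chosen on these comparisons, which also share the -LIF-ESC libraries. The median log2 difference of the 8 genes was 2.93 and 2.86.

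Between OSM-ESCs and LIF-ESCs the 4 keratins were slightly higher with OSM and the desmosome genes were near equal, and 0 of the 8 genes passed an adjusted p of 0.05 in limma, against 0.593% of all genes tested. At an unadjusted p under 0.05 stood 4 genes, Krt8, Krt18, Krt19 and Dsg2 (2838 of 18556 genes overall). The 4 keratins did not overlap between the groups and were higher in OSM-ESCs (26.3% of all genes), and Dsg2 and Dsc2 did not overlap and were lower (20.9% of all genes). The median log2 difference of the 8 genes was 0.07, beside 0.008 for all genes.

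Krt19 had the largest difference between the cytokines, a ratio of the means of 1.80 and a log2 difference of 0.60 (95% interval 0.31 to 0.90, adjusted p = 0.113). Krt8 followed with a ratio of 1.44 and a log2 difference of 0.48 (0.18 to 0.78, adjusted p = 0.173). Its size depended on OSM replicate 1 (20.78 TPM), since the log2 difference of Krt8 was 0.29 without that library and 0.66 without OSM replicate 2 (15.83 TPM). Krt18 had a ratio of 1.24 and a log2 difference of 0.30 (0.17 to 0.43, adjusted p = 0.0896). Krt7 was under 1 TPM in all 4 libraries with cytokine, so it entered the fit through -LIF-ESCs alone. Its ratio of the means was 1.38 and its log2 difference 0.14 (-0.17 to 0.45, adjusted p = 0.654). Its reads were few, and counting alone gives an error of 0.263 on the log2 ratio of reads. That is not the log2(TPM + 1) scale, which shrinks differences at such low TPM. The log2 difference of Krt7 was 0.08 without OSM replicate 2 or without LIF replicate 1, 0.38 with a pseudocount of 0.1 and 0.47 with voom on recovered reads. The last of these is the value to set beside that error. None of these keratin differences passed the threshold. The intervals leave room for a difference of up to 0.90 on the log2(TPM + 1) scale. For Krt19 and Krt7, at low TPM, the fold itself could be larger than this scale shows.

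The desmosome genes lay closer to 0 than Krt8, Krt18 and Krt19 did. Dsp differed by 0.00 (-0.21 to 0.21, adjusted p = 1) and Jup by -0.02 (-0.13 to 0.09, adjusted p = 0.887), so a difference beyond 0.21 in either direction lay outside both intervals. Dsg2 differed by -0.15 (-0.28 to -0.01, adjusted p = 0.29) and Dsc2 by -0.17 (-0.39 to 0.04, adjusted p = 0.415). An alternative test was voom on recovered reads, which weights each value by the precision expected at its read count. With voom 7.82% of genes had an adjusted p under 0.05, and 2 of the 8 genes passed. These were Krt8 (0.50, adjusted p = 0.0156) and Dsg2 (-0.15, adjusted p = 0.0187). Over all 15 alternatives the adjusted p ranged from 0.0156 to 0.443 for Krt8 and from 0.0187 to 0.587 for Dsg2. With 2 libraries per group the smallest two-sided p of an exact permutation test is 0.333, and the p-values given here depend on the model.

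**Figure D3:**
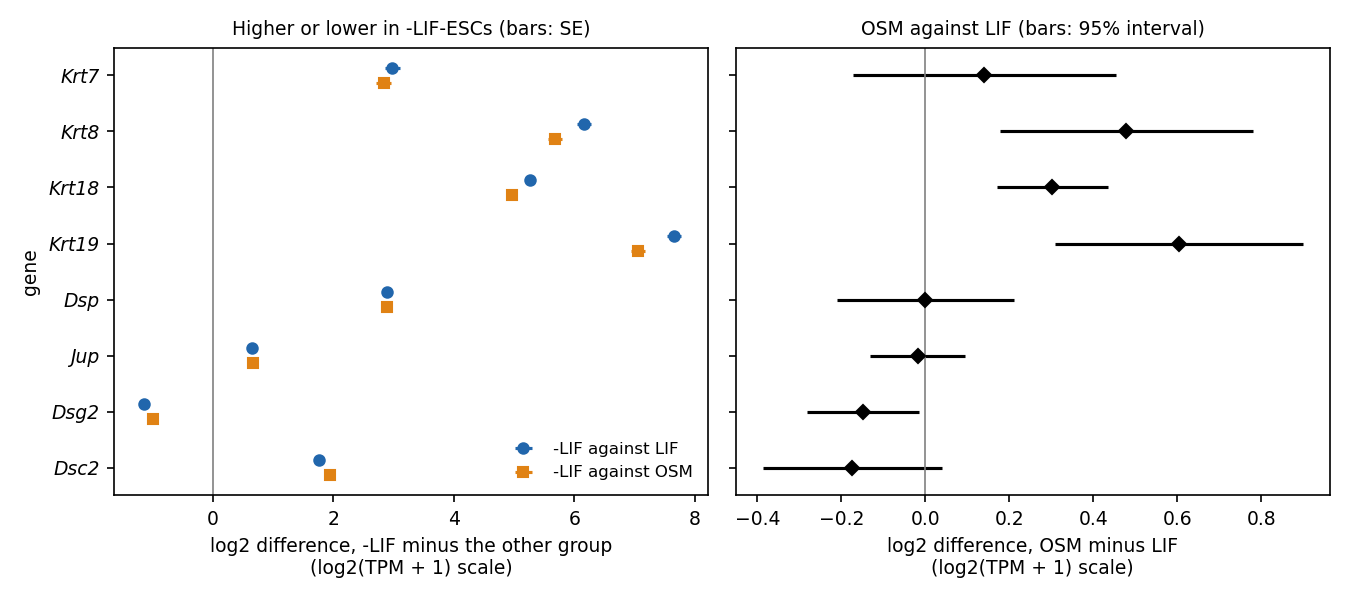
Points are differences on the log2(TPM + 1) scale. On the left -LIF-ESCs are set against LIF-ESCs (circles) and OSM-ESCs (squares) with bars of 1 SE, mostly smaller than the symbols. On the right OSM-ESCs are set against LIF-ESCs with 95% intervals on a finer axis, where the intervals of Krt8, Krt18, Krt19 and Dsg2 leave out 0 before adjustment.

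In -LIF-ESCs the other keratins did not share the levels of Krt8, Krt18 and Krt19. Their sum was 28.16 to 30.97 TPM there, 28.15 to 29.38 TPM with LIF and 27.89 to 29.81 TPM with OSM. With LIF this was near the sum of Krt7, Krt8, Krt18 and Krt19 (34.9 and 32.96 TPM), and Krt42 was at 14.14 and 15.4 TPM. Of 49 listed, 27 were in the table and 6 passed the filter, and the 21 others were at 1.2 TPM or less in every library. A gene was called at an adjusted p under 0.05 in limma and a log2 difference of at least 1, which took 8.09% of all genes higher and 13.3% lower in -LIF-ESCs against LIF-ESCs, and 7.86% and 14.2% against OSM-ESCs. On rescaled TPM they came to 10.2% and 10.5%, and 10.2% and 11.1%. Of the 6 keratins 2 were called higher and 1 lower in both comparisons, and the median log2 difference was -0.046 and -0.155, beside -0.165 and -0.182 for all genes. Both genes called higher passed the filter only through -LIF-ESCs, where they are high, so nothing is read from their count, and of the 4 that passed otherwise 0 were called higher and 1 lower.

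Krt14, the type I keratin of basal epidermis, was at 4.572 and 4.096 TPM in -LIF-ESCs and at 0.1407 TPM or less with cytokine, a log2 difference of 2.29 and 2.28, from 1 to 3 reads per cytokine library. Its type II partner Krt5 was at 0.2412 and 0.04891 TPM in -LIF-ESCs and listed at 0 in the other 4 libraries. Krt16, a stress keratin of skin, was also higher (1.33 and 1.32), and Krt42 was lower (-1.13 and -1.03) but was not called lower after rescaling. Krt20, a keratin of gut and bladder lining, was at 1.375 and 1.227 TPM in -LIF-ESCs, with a log2 difference of -0.20 against LIF-ESCs (adjusted p = 0.356) and -0.70 against OSM-ESCs (adjusted p = 0.017). The 10 other keratin genes of chromosome 15, around Krt7, Krt8 and Krt18, reached at most 0.437 TPM in any library, and the 17 others of chromosome 11, around Krt19, at most 15.4 TPM. Among the keratins of both clusters only Krt8, Krt18 and Krt19 stood above 15.4 TPM in any library.

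Of 18 other desmosome and plakin genes 13 were in the table and 10 were tested. In -LIF-ESCs 2 were called higher and 0 lower against LIF-ESCs, 2 higher and 2 lower against OSM-ESCs, and the median log2 difference was 0.401 and 0.395. Pkp2, the plakophilin of simple epithelia and heart that links Dsp to the cadherins, was at 43.35 and 43.89 TPM without cytokine, at 14.44 and 14.15 TPM with LIF and at 14.11 and 13.06 TPM with OSM (log2 difference 1.54 and 1.61, both called). Periplakin (Ppl) was also called higher (1.20 and 1.20). Plectin (Plec) and Macf1, plakins that also bind actin or microtubules, were lower by more than 1 only against OSM-ESCs (-1.10 and -1.05), and neither was called after rescaling.

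The stratified desmosome genes were near the floor. Pkp1 was at 0.1477 TPM or less, Dsg3 at 0.4411 TPM or less and Dsc3 at 0.376 TPM or less in every library, and none was tested. Pkp3, the plakophilin found in most epithelia, was at 10.14 and 8.024 TPM in -LIF-ESCs and its log2 difference of 0.04 and 0.16 did not pass (adjusted p = 0.82 and 0.325). Perp, a tetraspan protein of desmosomes, was higher by 0.58 and 0.43 (adjusted p = 0.000382 and 0.00115), below the limit on the fold.

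Adherens and tight junctions lie beside desmosomes in the epithelial junction complex. Of 34 genes tested -LIF-ESCs had 12 called higher and 0 lower against LIF-ESCs, and 11 and 0 against OSM-ESCs, and the median log2 difference was 0.573 and 0.737. Among the 32 that did not need the -LIF-ESC libraries to pass the filter 10 and 9 were called higher. The largest differences were those of Cldn3, a sealing claudin (3.44 and 3.66), of Nectin4 (2.11 and 2.17), of Cldn5 (2.10 and 2.01) and of Marveld2, a tight junction protein where the corners of cells meet (2.07 and 2.20). Nectin4 and Cldn5 passed the filter only through -LIF-ESCs, where they are high, so nothing is read from their calls. Cdh1, E-cadherin, was at 447.1 and 445.1 TPM without cytokine, at 223.1 and 220.0 TPM with LIF and at 221.5 and 210.5 TPM with OSM (1.01 and 1.04, both called). Epcam was at 205 to 281 TPM in all libraries and differed by 0.27 and 0.40. Cdh1 and Epcam were thus abundant in every group, whereas Krt8, Krt18 and Krt19 were abundant without cytokine.

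Hemidesmosome genes, which anchor keratins to the basement membrane, gave 1 call among 7 tested in each comparison. This was Lamb3, a chain of an epidermal laminin, higher in -LIF-ESCs by 1.67 and 1.97, and the median of the list was 0.099 and 0.034. Among 13 other intermediate filament genes 2 were called higher and 2 lower against LIF-ESCs, and 0 and 3 against OSM-ESCs, with a median of -0.494 and -0.603. This balance turned under other settings, since 3 were called higher and 2 lower against OSM-ESCs after rescaling and with voom, and 2 higher and 3 lower with a pseudocount of 0.1. Ina, a neuronal filament gene, was at 13.77 and 13.73 TPM in -LIF-ESCs and at 62.85 TPM or more with cytokine (-2.16 and -2.12). Nefl, another neuronal filament gene, was lower (-1.12 and -1.58), and Lmna, a nuclear lamin, was called lower against OSM-ESCs (-1.09). After rescaling Nefl was called against OSM-ESCs alone and Lmna in neither comparison. Nes and Des, filament genes of neural progenitors and of muscle, were called higher against LIF-ESCs (1.26 and 1.11). Vim, the filament of mesenchymal cells, was at 139.0 and 135.2 TPM without cytokine, 192.1 and 193.5 TPM with LIF and 266.1 and 267.2 TPM with OSM, a log2 difference of -0.49 and -0.95 that was within the limit on the fold.

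Of 17 transcription and splicing regulators of epithelia -LIF-ESCs had 5 called higher and 3 called lower in each comparison, with a median of 0.394 and 0.384. Of the 15 that did not need the -LIF-ESC libraries to pass the filter 4 were called higher and 3 lower. Elf3, an epithelial ETS factor, was at 92.59 and 86.57 TPM in -LIF-ESCs and at 16.2 TPM or less with cytokine (2.53 and 2.54). Cdx2, the trophectoderm and hindgut factor, was at 4.571 and 3.66 TPM in -LIF-ESCs and at 0.6928 TPM or less with cytokine (2.16 and 1.61). It passed the filter only through -LIF-ESCs, so nothing is read from its call. Gata3 was called higher against LIF-ESCs (1.37) and stood just under the limit on the fold against OSM-ESCs (1.00), where it was called after rescaling. Tfap2a was higher by 1.53 and 1.13. Klf4 and Klf5, which are pluripotency as well as epithelial factors, were lower (-2.81 and -2.67, and -2.20 and -1.99), as was Grhl1 (-1.50 and -1.43). Grhl2 (-0.44 and -0.43) and Esrp1 (-0.33 and -0.33), regulators often tied to junction genes, were lower by less than the limit. Trp63, a factor of stratified epithelia, was at 0.1368 and 0.1025 TPM in -LIF-ESCs and listed at 0 with cytokine.

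**Figure D4:**
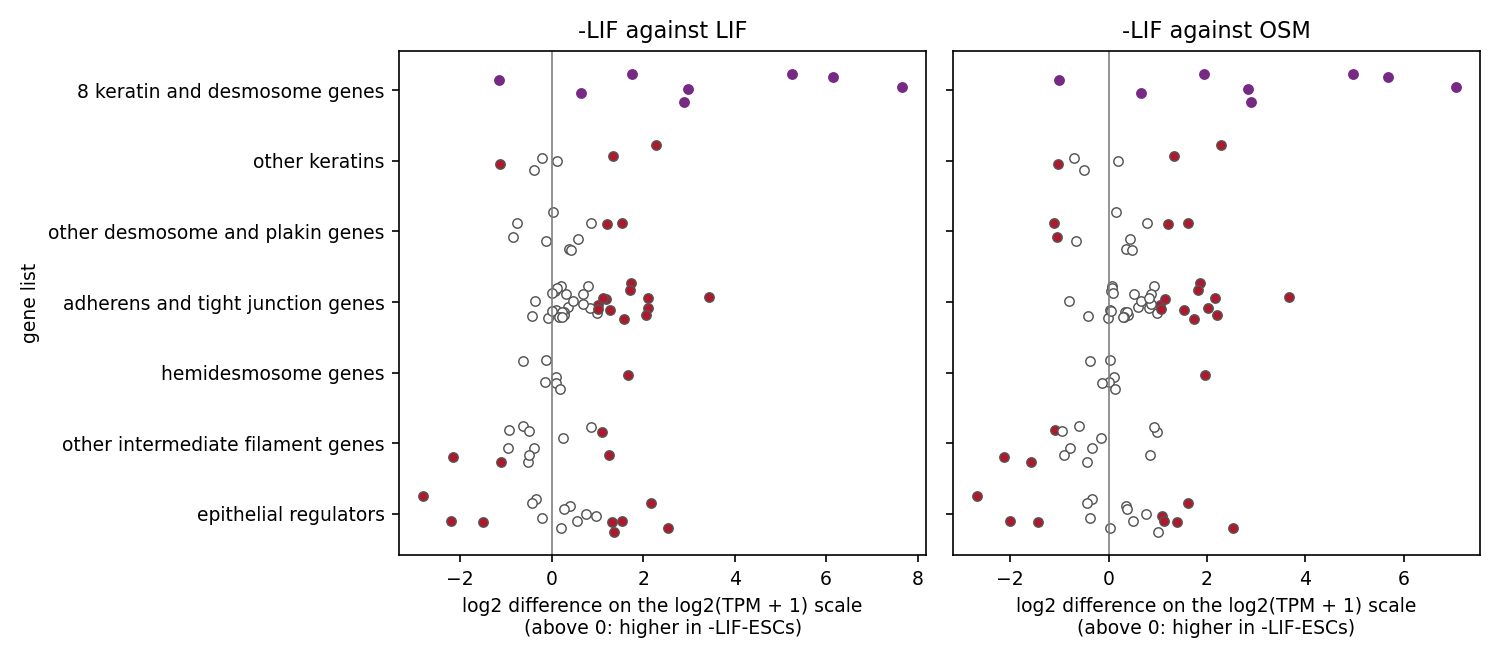
Each point is 1 gene, placed by its log2 difference between -LIF-ESCs and LIF-ESCs (left) or OSM-ESCs (right), with filled red points for called genes, open points for genes not called and purple points for the 8 keratin and desmosome genes, which were not tested here. The other keratins run from -1.13 to 2.29 on the left, and the 8 genes from -1.14 to 7.66.

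Markers of other cell types moved with the keratins, and their part in the differences above was not tested. The summed TPM of 15 primitive streak and mesoderm markers was 184.4 to 191.0 without cytokine, 15.94 to 18.22 with LIF and 20.1 to 21.26 with OSM, and 11 of 13 tested were called higher and 1 lower in both comparisons. Of these 13 genes 10 passed the filter only through -LIF-ESCs, 9 of the 11 called higher among them, so nothing is read from this count. T (Brachyury), its defining marker, was at 61.88 and 59.42 TPM in -LIF-ESCs. Of the trophectoderm list with Krt7 left out, 6 of 7 tested were called higher against LIF-ESCs and 4 against OSM-ESCs, 3 of them genes that passed the filter only through -LIF-ESCs. Its sum without Krt7 was 85.0 to 86.7 TPM without cytokine, 29.2 to 30.3 with LIF and 31.6 to 32.2 with OSM. Tfap2c gave most of this sum with cytokine, at 23.82 to 24.99 TPM, and was at 35.15 and 36.1 TPM without it. Hand1 was at 26.27 and 28.79 TPM in -LIF-ESCs and at 0.4804 TPM or less with cytokine. Other genes of the trophectoderm list were near the floor, since Gcm1, Psg17 and Prl2c2 were at 0.6834 TPM or less in every library. Elf5, Prl3d1 and Tpbpa had no entry in the deposited values. Cdx2 and Eomes are on the primitive streak list as well. Epidermal markers summed to 413.5 to 420.0 TPM without cytokine, 53.02 to 54.63 with LIF and 60.87 to 61.81 with OSM, and 4 of 7 were called higher and 1 lower in both comparisons, 2 of the 4 having passed the filter only through -LIF-ESCs. Sfn alone gave 396.4 and 391.7 TPM of this sum, and the defining Trp63 and Krt5 were at or near 0.

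Fibroblast markers, which feeder cells would carry, went the other way. Their sum was 127.3 to 134.5 TPM without cytokine, 722.4 to 726.4 with LIF and 1070 to 1074 with OSM, with 17 of 19 called lower in both comparisons, and Lox was at 0.07345 and 0.08937 TPM in -LIF-ESCs. Between OSM-ESCs and LIF-ESCs, where the keratins differed by 0.14 to 0.60, 5 of 19 fibroblast markers had an adjusted p under 0.05, all higher in OSM-ESCs. Of 15 ESC markers 1 was called higher and 7 lower against LIF-ESCs, and 1 and 6 against OSM-ESCs. Their sum of 5886 to 5893 TPM in -LIF-ESCs stood against 8315 to 8399 with LIF and 7716 to 7748 with OSM. The marker called higher was Dppa3, at a mean of 104.3 TPM without cytokine, 38.67 with LIF and 41.62 with OSM. Nanog was also higher without cytokine, at a mean of 433.4 TPM beside 289.9 with LIF and 261.1 with OSM, within the limit on the fold. The paper states the opposite direction for Nanog in its RNA-seq, and reports less Nanog protein without cytokine. The reason for this conflict was not tested. Primitive and visceral endoderm markers, a keratin-bearing lineage, were lower in -LIF-ESCs (7 of 11 called lower against LIF-ESCs and 5 against OSM-ESCs), at a sum of 95.4 to 97.2 TPM against 179.3 to 180.7 with LIF and 158.5 to 159.5 with OSM, and Afp and Ttr were at 0.1749 TPM or less. Mesothelial markers summed to 17.37 TPM or less, with 2 of 5 called higher, 1 of them through -LIF-ESCs alone at the filter, and ovarian markers to 11.37 TPM or less, with 0 of 3 called.

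**Figure D5:**
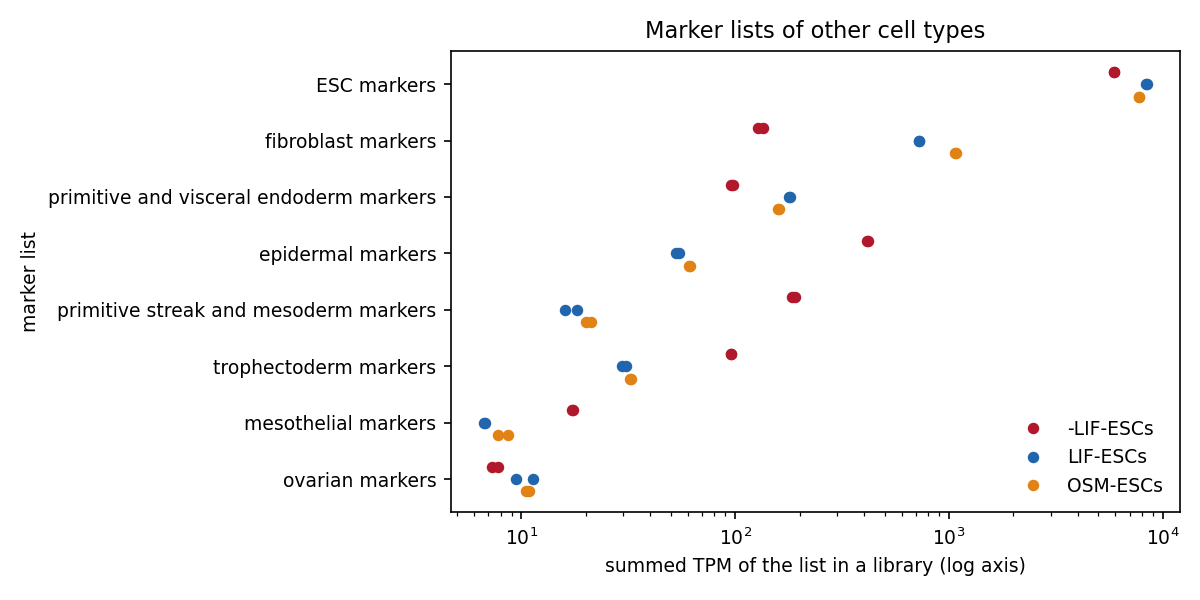
Each point is 1 library, placed by the summed TPM of a marker list on a log axis. The fibroblast, ESC and endoderm lists are lower and the epidermal, primitive streak, trophectoderm and mesothelial lists higher in -LIF-ESCs than in the 4 libraries with cytokine. The trophectoderm list is drawn with Krt7 in it.

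Genes whose pattern was most like that of each member were found by the Euclidean distance between log2(TPM + 1) values of the 6 libraries, after subtraction of each gene's mean, over 13160 genes with a symbol of their own. Krt8 was nearest to Fgf8 (distance 0.488), then to Rnu3b3 (0.972) and to Krt18 (0.992). Krt18 was nearest to Alox15 (0.367), and T was among its nearest 5 genes (0.469). Krt19 had no close neighbour, and Krt8 was the nearest at 1.726. On the log2(TPM + 1) scale these genes have a step of like size between -LIF-ESCs and the rest, and with 3 groups many genes share such a step. Their folds can differ widely, because this scale shrinks the fold of a gene with a low TPM. Alox15, for example, had a mean of 37.08 TPM in -LIF-ESCs and 0.08861 TPM in LIF-ESCs, where Krt18 had 765.5 and 19.0 TPM.

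The lower keratin and the desmosome genes had closer neighbours. Krt7 was nearest to Sfn (0.109), which stood at 394 TPM in -LIF-ESCs and 47.4 TPM in LIF-ESCs. It was next nearest to Xlr4a (0.147), and its distance to Dsp was 0.302. The fold of Sfn was thus smaller than that of Krt7, though their steps on this scale were alike. Dsp was nearest to Hmgcs1 (0.2), Xlr4a (0.211) and Klk1 (0.221). Dsc2 was nearest to Ifitm1 (0.103) and Obsl1 (0.119). Jup was nearest to Ciapin1 (0.041) and Triobp (0.045), and Dsg2 to Zfp292 (0.055) and Acsm3 (0.061). Among the nearest 5 genes of each member, the members themselves appeared only beside Krt8 and Krt19.

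Some reads of these genes could belong to others. The library kit does not mark strand, and 101 exon bases of Krt8 (5.2%) are overlapped on the opposite strand by Gm36026, which was at 155.2 and 153.0 TPM in -LIF-ESCs and at 2.95 TPM or less with cytokine. Of Dsp 499 bases (5.2%) are overlapped by Gm10129 (10.07 and 12.58 TPM in -LIF-ESCs, 1.62 TPM or less with cytokine), and of Dsg2 330 bases (4.0%) by Gm16090 (9.589 and 9.208 TPM in -LIF-ESCs, 19.45 to 25.21 TPM with cytokine). The levels of these antisense genes followed those of their partners, and reads of a pair cannot be told apart where they overlap. Krt7 shares 77 bases (1.1%) with Gm671, which reached 1.27 TPM. The processed pseudogene Krt8-ps was at 4.673 and 3.98 TPM in -LIF-ESCs and at 0.08724 TPM or less elsewhere, and how reads that match both copies were counted is not given in the sources used here.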

How the data were processed

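RNA-seq of mESCs was analysed from 6 libraries, 2 in each of 3 groups, grouped by the medium in the labels. The authors mapped clean reads to mm10 with HISAT2 and counted them per gene with featureCounts, per the paper's methods and the labels, and deposited a single table of TPM values. The annotation, the strand setting and the handling of reads with several matches are not given in the sources used here. Trimmomatic is also named in the submitters' processing notes, without a version.

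The TPM deposited for each library summed to 999949.5 to 999966.0. Multiplied by GENCODE M21 exon lengths, found for 28405 of 28584 symbols (99.4%), 95.4% of values came out as whole reads within 0.02 of a read. Values with no reads always count as whole in this share. The recovered reads gave the depth and the counting error, which covers counting alone.

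Limma 3.58.1 (lmFit, then eBayes with a trend; R 4.3.3) was run on log2(TPM + 1) in a single fit of 3 groups. Genes entered if they reached 1 TPM in 2 or more libraries, which left 18556. The fit had 3 residual degrees of freedom, 5.3 after the prior was added, and its median residual SD was 0.086. P-values are two-sided and adjusted over all genes tested (Benjamini-Hochberg). Calls in the lists needed an adjusted p under 0.05 together with a log2 difference of at least 1. The steps were tested on simulated data. Tables and plots used pandas 2.3.3, matplotlib 3.10.9 and numpy 2.4.6 in Python 3.11.15. The authors' own DESeq2 test was not repeated here.

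The 8 genes and the lists were chosen with earlier results of these data known, and the lists came from general knowledge. Named are all 8 genes, up to 3 called genes with the largest difference per list, genes whose role is explained, the leading and defining markers, and some of the nearest genes of each member, 1 of which is not reported here. Macf1, Des, Tfap2a and Grhl1 were added after their values were seen. Alternatives were voom on recovered reads, rescaling by the median ratio, a pseudocount of 0.1, filters of 0 and 5 TPM, the replicate number as a block, a fit of only those groups that were compared, eBayes with no trend, TPM without the 37 mitochondrial genes, another rule for a call, and each library left out.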

Additional observations from a re-analysis of the deposited data

Results flagged for a closer look

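The responses to OSM and to LIF were compared directly for the 8 genes and the genes of the pathway lists. None of the 8 keratin and desmosome genes passed an adjusted p of 0.05 in limma, and 3 list genes did, each higher in both OSM-ESC libraries than in both LIF-ESC libraries. Vim, the intermediate filament gene of mesenchymal cells, differed by 0.47 on the log2(TPM + 1) scale (266.1 and 267.2 TPM against 192.1 and 193.5, adjusted p = 0.0256). Dst, a plakin of hemidesmosomes and of the cytoskeleton, differed by 0.53 (25.4 and 25.23 TPM against 17.06 and 17.33, adjusted p = 0.03). Nes, a filament gene of neural progenitors, differed by 0.41 (17.53 and 16.78 TPM against 12.71 and 12.58, adjusted p = 0.0492). The 5 fibroblast markers with an adjusted p under 0.05 were also higher with OSM, and their part in these differences was not tested. With the replicate block, or with a fit of these 2 groups alone, 0 of 18556 genes passed an adjusted p of 0.05 in limma, against 110 otherwise, and 2477 and 2659 genes had an unadjusted p under 0.05.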

How the results depend on the processing

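Under every alternative 7 of the 8 genes were higher in -LIF-ESCs in both comparisons and Dsg2 was lower. Between OSM-ESCs and LIF-ESCs no direction of these 8 genes reversed where a threshold was passed. The lists were followed by their counts of calls, and the direction of each list gene was not checked. With voom 2 of the 8 genes passed an adjusted p of 0.05 between OSM-ESCs and LIF-ESCs, against 0 under the other alternatives, the replicate block included. A filter of 5 TPM left 1 call among other keratins in each comparison (3 otherwise), 1 among other desmosome and plakin genes against LIF-ESCs (2 otherwise) and 5 among epithelial regulators against LIF-ESCs (8 otherwise), since fewer genes were tested. Rescaling by the median ratio gave 2 calls among desmosome and plakin genes against OSM-ESCs (4 otherwise). For other intermediate filament genes against OSM-ESCs it gave 5 calls, as did a pseudocount of 0.1 and voom (3 otherwise), and the cause was not tested. The balance was 3 higher and 2 lower after rescaling and with voom, 2 and 3 with the pseudocount, and 0 and 3 as reported. With no limit on the fold, there were 8 calls against LIF-ESCs and 9 against OSM-ESCs for desmosome and plakin genes, 26 and 25 for adherens and tight junction genes, 3 and 3 for hemidesmosome genes, 12 and 12 for intermediate filament genes and 14 and 15 for epithelial regulators, and 5 for other keratins against OSM-ESCs. Leaving out each library in turn, where the lone library of a group is assumed to vary like the other groups, gave 3 and 2 to 3 calls for other keratins, 2 and 4 for desmosome and plakin genes, 11 to 12 and 11 to 12 for adherens and tight junction genes, 1 and 1 for hemidesmosome genes, 4 to 5 and 3 to 4 for intermediate filament genes, 8 to 9 and 8 to 9 for epithelial regulators, and 0 of the 8 genes between OSM-ESCs and LIF-ESCs. The replicate numbers were not shown to pair the libraries, since deviations of same-numbered libraries correlated at -0.043, -0.023 and 0.027. With the replicate block as a term the genes at an adjusted p under 0.05 were 12224 against LIF-ESCs and 12289 against OSM-ESCs (12631 and 12680 without it) and 0 between OSM-ESCs and LIF-ESCs (110 without it). Depth limits Krt7 and Krt19 most, with 21 to 81 reads per library with cytokine.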
